A study of Caenorhabditis elegans with 44 samples.

Results

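The SKN-1A pathway of Caenorhabditis elegans was followed through 8 genes, for this transcription factor and for proteins that act with it: skn-1, png-1, ddi-1, sel-1, sel-11, aip-1, cdc-48.1 and cdc-48.2. They were chosen by name for their known place in the pathway, and all 8 were found among the 11430 gene identifiers listed over the 3 tables of the series. All 8 were tested at each of the 3 times, none through a single group with high values. The series is bulk RNA-seq of whole young adult worms in which the heat shock factor HSF-1 can be removed from the germline. Animals of the HSF-1-AID strain (JTL621) carry hsf-1 fused to an auxin-inducible degron and gfp, and animals of the TIR1-only strain (CA1199) carry untagged hsf-1. Both strains also carry unc-119(ed3) and the transgene ieSi38, in which the germline promoter of sun-1 drives TIR1 fused to mRuby, the plant F-box protein that needs auxin to mark degron-tagged proteins for destruction. Worms synchronized as larvae grew for 51 h, and about 120 of them made up each condition, picked to plates with auxin or with its solvent ethanol and collected 8, 16 or 24 h later. The groups at each time were HSF-1-AID on auxin, HSF-1-AID on ethanol, TIR1-only on auxin and TIR1-only on ethanol, each of 4 libraries at the first and second time and of 3 libraries at the last, 44 in all. All sample titles carry the label NHS, which the titles do not spell out.

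SKN-1A is the isoform of skn-1 that is anchored in the membrane of the endoplasmic reticulum, as its mammalian relative Nrf1 is. It is glycosylated there and, in cells with enough proteasomes, pulled back into the cytosol by the degradation machinery of the endoplasmic reticulum and destroyed. When proteasomes fall short, the extracted protein escapes destruction, loses its glycans to the enzyme PNG-1, is cut by the protease DDI-1 and turns on the genes of the proteasome subunits. HSF-1 is the transcription factor that drives chaperone genes in the heat shock response and also acts in development without heat. The study asked what the loss of HSF-1 from the germline did to transcripts over time, and the strain that has TIR1 but no degron shows what auxin does by itself.

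Values are given as CPM, counts of reads per 1e6 reads of the library, and a log2 fold change compares group means of the deposited log2 CPM, which include a small prior count. Differences were tested with limma over all genes at a time, with p-values adjusted by Benjamini and Hochberg's method and called at an adjusted p under 0.05. The depth, in units of 1e6 reads, was between 12.5 and 50.7 at 8 h, with the 4 deepest libraries those numbered 4, between 31 and 57.7 at 16 h and between 13.3 and 24.4 at 24 h. Reads of rRNA genes took up to 31.4% of a library at 8 h, 3.43% at 16 h and 18.3% at 24 h. The degron acts on protein, so the hsf-1 transcript does not check the depletion: at 16 h it averaged 70.8 CPM in HSF-1-AID animals on auxin and 51.2 CPM in those on ethanol, and at 24 h 77.3 and 53.8 CPM. In TIR1-only animals it averaged 65.9 CPM on auxin and 67.9 CPM on ethanol at 16 h, and 68.8 and 69.6 CPM at 24 h, so the HSF-1-AID animals on ethanol had the lowest level at both times. Markers of germline, oocytes, intestine, body muscle and neurons were all present above 0 CPM in every group, as in whole animals. Other lists were found in part: 8 of 10 sperm markers at 8 h and 2 of 10 at 16 h and at 24 h, and 3 of 7 hypodermis markers at each time. Nothing in the labels states that replicates came from separate cultures, and the p-values measure the spread between libraries. In whole-animal RNA, fewer cells of a type and less RNA per cell cannot be told apart.

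In HSF-1-AID animals most of the pathway genes rose at 16 h of auxin, and none was called at 8 h. At 16 h, 6 of 8 members were higher on auxin than on ethanol, namely skn-1, png-1, ddi-1, sel-1, sel-11 and cdc-48.2, in a comparison in which 42.2% of all tested genes changed, 22.3% upward and 19.8% downward. The rises were small, between 1.14-fold for sel-1 and 1.47-fold for png-1. At 24 h, png-1 and ddi-1 were the 2 of 8 members called higher, where 38.4% of all genes changed, 18.2% upward and 20.2% downward. The median log2 fold change of the 8 members was 0.20 at 16 h and 0.23 at 24 h, beside -0.032 and -0.011 over all tested genes. At 8 h, 0 of 8 were called by limma, with 0 also at an unadjusted p under 0.05, and 0.283% of all genes were called, 0.246% upward. The 95% intervals of the members at 8 h lay within -0.42 to 0.36 on the log2 scale.

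At 24 h, libraries with the same replicate number deviated together, and a fit with the replicate number as a block called 6 of 8 members: skn-1, png-1, ddi-1, sel-1 and cdc-48.2 higher and cdc-48.1 lower. The same fit called 54% of all genes, 25.9% upward and 28.1% downward. The counts at 24 h therefore depend on whether the spread shared by same-numbered libraries is taken out.

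**Figure D1:**
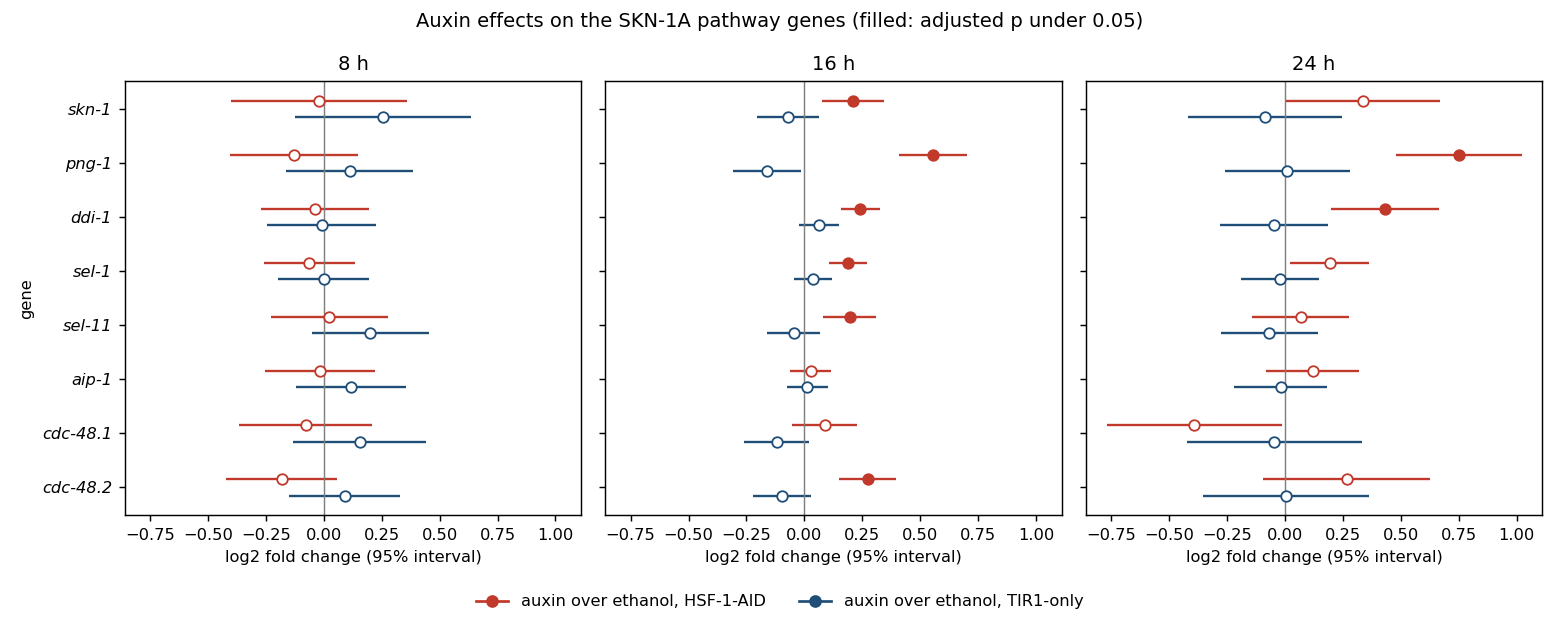
Log2 fold changes of auxin over ethanol for each pathway gene in HSF-1-AID animals (red) and TIR1-only animals (blue) at 8, 16 and 24 h, as points with 95% intervals from limma, filled where the adjusted p was under 0.05. The 6 filled red points at 16 h and 2 at 24 h all lie above 0, and no blue point is filled.

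In the TIR1-only strain, auxin changed 0 of 8 members at any time by limma. The share of all genes called there was 0.246% at 8 h, 0.147% at 16 h and 0.00961% at 24 h. At an unadjusted p under 0.05 the count was 0 members at 8 h, 1 at 16 h and 0 at 24 h. The 1 member was png-1, with a log2 fold change of -0.16 and an unadjusted p of 0.0333, opposite in sign to its change in HSF-1-AID animals. The difference between the auxin effects of the strains was itself tested, and at 16 h it was called for 5 of 8 members, all in the direction of a larger rise in HSF-1-AID animals: png-1, cdc-48.2, skn-1, sel-11 and ddi-1. Of all genes, 29.6% had such a difference at 16 h, 17.2% with the higher effect in HSF-1-AID. At 24 h it was called for png-1 and ddi-1, where 24.1% of all genes were called, 11.4% with the higher effect in HSF-1-AID. With the replicate block it was called for 5 members, 4 higher and cdc-48.1 lower, and for 41.6% of all genes, 20.3% higher and 21.3% lower. At 8 h it was called for 0 members, 0 also at an unadjusted p under 0.05, and for 0.00911% of all genes.

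On ethanol, 0 of 8 members were called between HSF-1-AID and TIR1-only animals at each time, and 0.00911%, 0.0295% and 0.00961% of all genes were called at 8, 16 and 24 h. One member, cdc-48.2 at 16 h, had an unadjusted p under 0.05, with 721 ± 33.7 CPM in HSF-1-AID and 791 ± 19.7 CPM in TIR1-only animals on ethanol (SD, n = 4 each) and an adjusted p = 0.97.

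The gene skn-1 (chromosome IV, 5651039 to 5660384, minus strand of WBcel235) encodes the transcription factor at the centre of the pathway. At 16 h it had 198, 213, 209 and 199 CPM in the HSF-1-AID auxin libraries, against 191, 175, 174 and 169 CPM in the HSF-1-AID ethanol libraries. The TIR1-only libraries had 178, 193, 174 and 148 CPM on auxin and 179, 186, 184 and 175 CPM on ethanol. All 4 libraries of HSF-1-AID animals on auxin lay above all 12 others. The log2 fold change in HSF-1-AID animals was 0.21 ± 0.063 (SE, adjusted p = 0.0142), a 1.16-fold rise, and the difference from the effect in TIR1-only animals was 0.28 ± 0.089 (SE, adjusted p = 0.0263). That difference was not called without HSF-1-AID auxin replicate 2 (adjusted p = 0.0552), without HSF-1-AID ethanol replicate 4 (0.0559) or without TIR1-only ethanol replicate 2 (0.0532), nor with rRNA left out of the library totals (0.055).

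At 24 h skn-1 had 178, 235.0 and 225 CPM in HSF-1-AID animals on auxin and 153, 179.7 and 169.9 CPM in those on ethanol. In TIR1-only animals it had 139, 168 and 179 CPM on auxin and 134, 192 and 196 CPM on ethanol. The HSF-1-AID groups overlapped by a single auxin library, replicate 1, the lowest in its group. The log2 fold change of 0.34 ± 0.15 (SE, adjusted p = 0.101) was not called, while the fit with the replicate block called it (adjusted p = 4.08e-04) and so did the fits without HSF-1-AID auxin replicate 1 (0.0401) and without TIR1-only ethanol replicate 1 (0.0363). It was also called with median-centred libraries (0.0197), rRNA left out of the totals (0.01625), only the groups compared in the fit (0.0447) and library quality weights (0.00786). The difference between strains was 0.42 ± 0.22 (SE, adjusted p = 0.185), with 0.00168 under the block, 0.00995 with library quality weights and 0.0261 without TIR1-only ethanol replicate 1. At 8 h the 16 libraries ranged from 106 to 215 CPM, the widest relative spread among the members. The annotation gives skn-1 4 coding transcripts, and a count per gene does not separate the membrane-anchored SKN-1A from the other isoforms, nor does RNA show the cutting or deglycosylation of the protein. Its exons overlap those of csn-5 on the opposite strand, a subunit of the COP9 signalosome, which at 16 h also rose in HSF-1-AID animals on auxin, by 0.17 ± 0.034 (SE, adjusted p = 7.55e-04). Which strand the authors counted is not given in the sources used here, so reads of the overlap may be split between these genes.

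**Figure D2:**
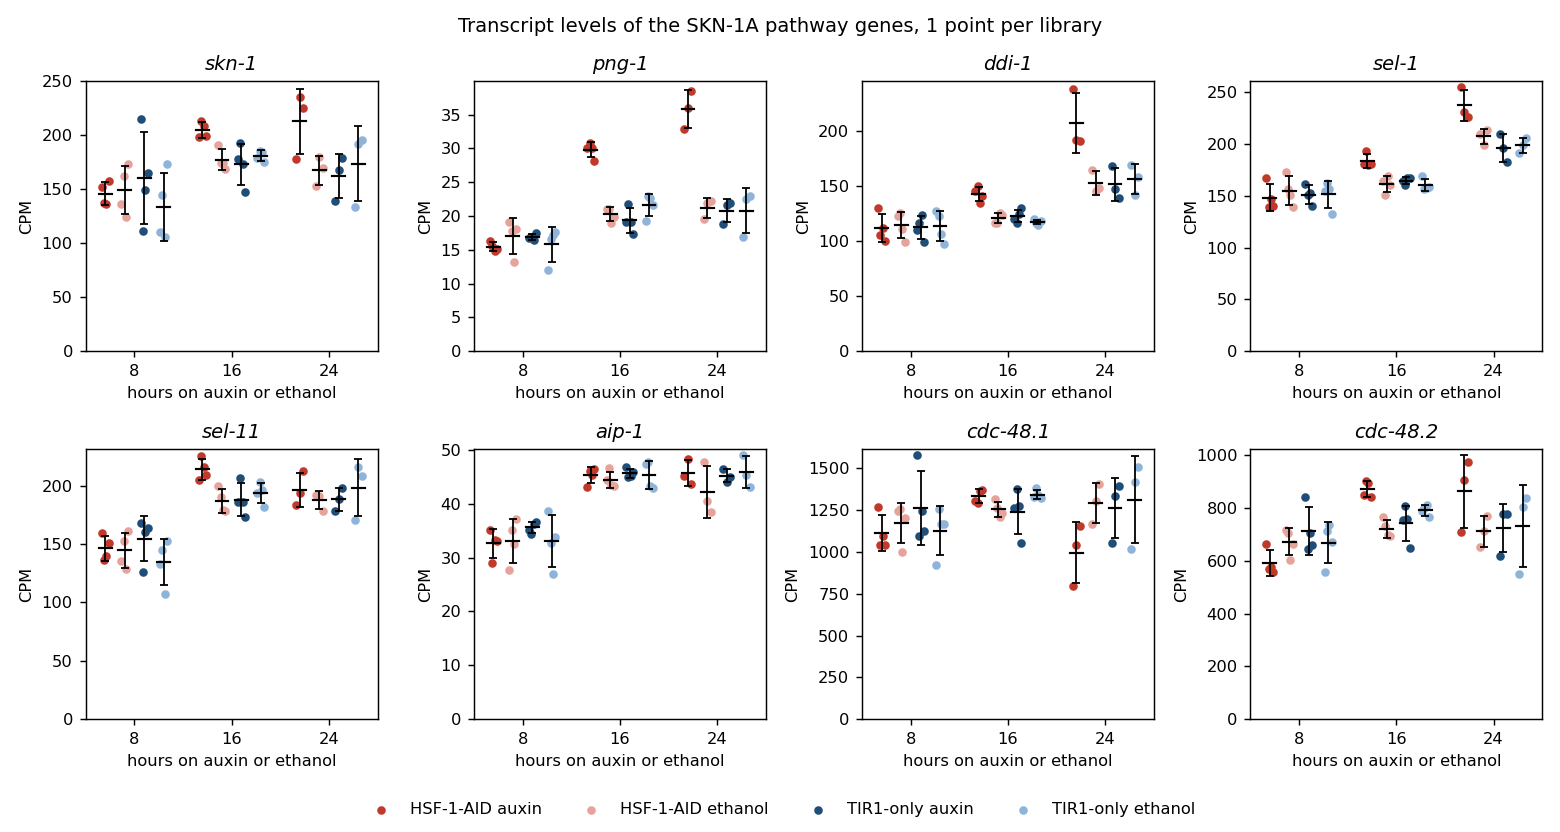
CPM of the 8 pathway genes in each library at 8, 16 and 24 h, for HSF-1-AID animals on auxin (dark red) and ethanol (light red) and TIR1-only animals on auxin (dark blue) and ethanol (light blue), with the group mean and SD in black. The dark red points of png-1 and ddi-1 stand above the other groups at 16 h and 24 h, those of cdc-48.1 lie below its other groups' means at 24 h, and those of aip-1 lie among the others.

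The largest change of the 8 was that of png-1 (chromosome I, 11380231 to 11388751, plus strand), which encodes the peptide:N-glycanase that removes glycans from extracted SKN-1A and in doing so edits its sequence. At 16 h it had 30.1, 30.8, 30.02 and 28.2 CPM in HSF-1-AID animals on auxin, against 21.1, 21.1, 18.98 and 19.9 CPM in those on ethanol. TIR1-only animals had 19.1, 21.8, 19.1 and 17.4 CPM on auxin and 19.3, 22.9, 22.7 and 21.6 CPM on ethanol. At 24 h the values were 32.9, 36.0 and 38.5 CPM in HSF-1-AID animals on auxin, against 19.5, 21.97 and 22.2 CPM in those on ethanol, and 18.8, 21.7 and 21.97 CPM in TIR1-only animals on auxin against 16.9, 22.5 and 23 CPM on ethanol. At both times every library of HSF-1-AID animals on auxin stood above all the other libraries of that time, with a wide gap.

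The log2 fold change of png-1 was 0.56 ± 0.069 (SE, adjusted p = 1.15e-05) at 16 h and 0.75 ± 0.13 (SE, adjusted p = 4.32e-04) at 24 h, which are 1.47-fold and 1.68-fold. The difference from the TIR1-only strain was 0.72 ± 0.10 (SE, adjusted p = 7.88e-05) at 16 h and 0.74 ± 0.18 (SE, adjusted p = 0.00917) at 24 h, and these 4 calls held without any 1 library and under every other setting tried. At 8 h the groups overlapped, with 15.5 ± 0.661 CPM in HSF-1-AID animals on auxin and 17.1 ± 2.62 CPM on ethanol (SD, n = 4 each), and the log2 fold change was -0.13 ± 0.13 (SE, adjusted p = 0.9955). Exons of png-1 overlap those of aat-9 on the opposite strand, an amino acid transporter gene, whose own log2 fold change was 0.024 ± 0.062 (SE, adjusted p = 0.777) at 16 h and -0.08 ± 0.12 (SE, adjusted p = 0.624) at 24 h.

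The protease gene ddi-1 (chromosome IV, 6522867 to 6524571, plus strand) rose at both later times. DDI-1 is an aspartic protease, related to retroviral proteases, that cuts SKN-1A into its active form. At 16 h ddi-1 had 146, 149.6, 135 and 141 CPM in HSF-1-AID animals on auxin, against 117, 117, 126 and 123 CPM in those on ethanol, and 120.1, 117, 124 and 129.9 CPM in TIR1-only animals on auxin against 120.1, 117, 115 and 118 CPM on ethanol. At 24 h it had 238, 192 and 191 CPM in HSF-1-AID animals on auxin and 165, 145 and 148 CPM in those on ethanol. The TIR1-only animals had 168, 147 and 139 CPM on auxin and 169.5, 141.6 and 158 CPM on ethanol. At both times the lowest auxin library of the HSF-1-AID strain was above the highest library of every other group. Replicate 1 was the highest at 24 h in each of the 4 groups.

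The log2 fold change of ddi-1 was 0.24 ± 0.041 (SE, adjusted p = 1.92e-04) at 16 h and 0.43 ± 0.11 (SE, adjusted p = 0.00674) at 24 h, which are 1.18-fold and 1.35-fold. With rRNA left out of the totals the 16 h change was no longer called (adjusted p = 0.0527). The difference from the TIR1-only strain was smaller, 0.18 ± 0.057 (SE, adjusted p = 0.0275) at 16 h, and was lost without each of HSF-1-AID auxin replicate 1, HSF-1-AID auxin replicate 2, HSF-1-AID ethanol replicate 2, TIR1-only auxin replicate 1 and TIR1-only ethanol replicate 1 (adjusted p = 0.0534, 0.0597, 0.0533, 0.0527 and 0.0522, in that order), with median-centred libraries (0.0694) and with rRNA left out (0.658). At 24 h that difference was 0.48 ± 0.15 (SE, adjusted p = 0.0377), or 1.78e-04 with the replicate block. It was not called without each of HSF-1-AID auxin replicate 1, HSF-1-AID ethanol replicate 2, HSF-1-AID ethanol replicate 3, TIR1-only auxin replicate 2, TIR1-only auxin replicate 3, TIR1-only ethanol replicate 1 and TIR1-only ethanol replicate 3 (adjusted p = 0.0755, 0.0878, 0.0771, 0.079, 0.0921, 0.0708 and 0.0724, in that order), nor with rRNA left out (0.127) or the variance trend off (0.0664). At 8 h ddi-1 had 112 ± 12.9 CPM in HSF-1-AID animals on auxin and 115 ± 11.9 CPM in those on ethanol (SD, n = 4 each).

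The pair that forms the core of the ubiquitin ligase complex in the membrane of the endoplasmic reticulum rose together at 16 h. The gene sel-11 (chromosome V, 11767328 to 11769899, plus strand) encodes the HRD1-type ubiquitin ligase, and sel-1 (chromosome V, 12560732 to 12563383, plus strand) its luminal partner, the counterpart of mammalian SEL1L. At 16 h sel-1 had 181, 193, 179.8 and 180.3 CPM in HSF-1-AID animals on auxin, against 165, 151, 169 and 161 CPM in those on ethanol, and 164, 160.0, 167 and 167 CPM in TIR1-only animals on auxin against 169, 156, 158 and 158 CPM on ethanol. At the same time sel-11 had 205, 226, 216 and 209 CPM in HSF-1-AID animals on auxin, against 200.0, 190.5, 179 and 178 CPM in those on ethanol. TIR1-only animals had 186, 207, 186 and 173 CPM of sel-11 on auxin and 194, 203, 196 and 182 CPM on ethanol. Both genes were above their HSF-1-AID ethanol libraries in all 4 auxin libraries; the lowest sel-11 value on auxin was just below the highest of the TIR1-only auxin libraries.

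The log2 fold changes at 16 h were 0.19 ± 0.039 (SE, adjusted p = 0.00116) for sel-1 and 0.20 ± 0.054 (SE, adjusted p = 0.00902) for sel-11. With rRNA left out of the totals the rise of sel-1 was not called (adjusted p = 0.113). The difference from the TIR1-only strain was 0.24 ± 0.077 (SE, adjusted p = 0.0267) for sel-11, lost without HSF-1-AID auxin replicate 2 (0.0588), HSF-1-AID ethanol replicate 3 (0.0546), HSF-1-AID ethanol replicate 4 (0.0579) or TIR1-only ethanol replicate 2 (0.0603) and with rRNA left out (0.0774). For sel-1 it was 0.15 ± 0.055 (SE, adjusted p = 0.0516), which missed the threshold, and it was called without HSF-1-AID ethanol replicate 1 (0.0484), HSF-1-AID ethanol replicate 3 (0.032) or TIR1-only auxin replicate 4 (0.0484), with a filter at 5 CPM (0.0429) and with library quality weights (0.0419).

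At 24 h the groups overlapped for sel-11 but not for sel-1. The values of sel-1 were 255, 231 and 226 CPM in HSF-1-AID animals on auxin and 210.0, 199 and 213 CPM in those on ethanol, without overlap, and the log2 fold change of 0.19 ± 0.078 (SE, adjusted p = 0.0678) was called with the replicate block (adjusted p = 0.0146). That change was also called with median-centred libraries (0.0145) and with library quality weights (0.0342). TIR1-only animals had 209.5, 196 and 182 CPM of sel-1 on auxin and 191, 199 and 206 CPM on ethanol. By contrast, sel-11 had 184, 193 and 212 CPM in HSF-1-AID animals on auxin and 192, 191 and 178 CPM in those on ethanol, with overlap, and a log2 fold change of 0.068 ± 0.10 (SE, adjusted p = 0.618) with a 95% interval of -0.14 to 0.28. Whether the 2 genes differed from each other at 24 h was not tested. At 8 h sel-1 averaged 148 ± 13.2 CPM on auxin and 155 ± 13.9 CPM on ethanol in HSF-1-AID animals, and sel-11 146 ± 10.7 and 144 ± 15.2 CPM (SD, n = 4 each).

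The gene aip-1 (chromosome V, 14012333 to 14013644, plus strand) encodes an arsenite-inducible zinc finger protein that associates with the proteasome, and its log2 fold change at 16 h was the smallest of the 8. At 16 h its values were 43.1, 46.1, 45.4 and 46.5 CPM in HSF-1-AID animals on auxin, against 44.4, 46.5, 43.4 and 43.2 CPM in those on ethanol. At 24 h they were 45.1, 48.32 and 43.7 CPM in HSF-1-AID animals on auxin and 47.6, 40.5 and 38.5 CPM in those on ethanol. In TIR1-only animals aip-1 ranged from 45.0 to 46.7 CPM on auxin and 42.9 to 47.7 CPM on ethanol at 16 h, and from 44.1 to 46.5 and 43.1 to 49.1 CPM at 24 h. The groups overlapped at every time. The log2 fold change in HSF-1-AID animals was 0.028 ± 0.042 (SE, adjusted p = 0.621) at 16 h with a 95% interval of -0.061 to 0.12, narrow enough to leave out the sizes seen for the 6 members that rose. At 24 h it was 0.12 ± 0.092 (SE, adjusted p = 0.334), and its interval of -0.08 to 0.32 did include such sizes.

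The last members encode the ATPase that pulls SKN-1A out of the membrane, the worm p97, from a pair of similar genes on chromosome II: cdc-48.1 (chromosome II, 10560036 to 10563407, minus strand) and cdc-48.2 (chromosome II, 8138496 to 8141230, plus strand). At 16 h cdc-48.2 had 850.2, 902, 895 and 840.2 CPM in HSF-1-AID animals on auxin, against 764, 732, 696 and 693 CPM in those on ethanol. It had 756, 806, 758 and 648 CPM in TIR1-only animals on auxin and 789, 799, 811 and 765 CPM in those on ethanol. All 4 HSF-1-AID auxin libraries lay above all others. The log2 fold change was 0.27 ± 0.058 (SE, adjusted p = 0.00145), and its difference from the TIR1-only strain was 0.37 ± 0.082 (SE, adjusted p = 0.00357); both calls held without any 1 library.

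At 16 h cdc-48.1 had 1303, 1291, 1367 and 1373 CPM in HSF-1-AID animals on auxin and 1314, 1264, 1208 and 1233 CPM in those on ethanol. In TIR1-only animals it had 1262, 1376, 1277 and 1051 CPM on auxin and 1329, 1382, 1342 and 1320 CPM on ethanol. The groups overlapped, and the log2 fold change in HSF-1-AID animals was 0.088 ± 0.066 (SE, adjusted p = 0.301). The difference from the TIR1-only strain was 0.21 ± 0.094 (SE, adjusted p = 0.105), called without TIR1-only auxin replicate 2 (adjusted p = 0.0305) and with library quality weights (0.0356).

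At 24 h the fold changes of the pair had opposite signs. The values of cdc-48.1 were 796, 1039 and 1153 CPM in HSF-1-AID animals on auxin and 1170, 1307 and 1406 CPM in those on ethanol. Those of cdc-48.2 were 708, 907 and 973 CPM in HSF-1-AID animals on auxin and 652, 715 and 770.4 CPM in those on ethanol. TIR1-only animals had 1056, 1336 and 1397 CPM of cdc-48.1 on auxin and 1016, 1416 and 1507 CPM on ethanol, and 620.2, 776 and 778 and 552, 804 and 837 CPM of cdc-48.2. For cdc-48.1 the 3 HSF-1-AID auxin libraries lay below the 3 ethanol libraries, and for cdc-48.2 the groups overlapped. The log2 fold changes were -0.39 ± 0.18 (SE, adjusted p = 0.0963) for cdc-48.1 and 0.27 ± 0.17 (SE, adjusted p = 0.231) for cdc-48.2, neither called, and both were called with the replicate block (adjusted p = 1.71e-04 for cdc-48.1 and 0.00458 for cdc-48.2). The differences from the TIR1-only strain were -0.35 ± 0.25 (SE, adjusted p = 0.354) and 0.26 ± 0.24 (SE, adjusted p = 0.468), with 0.00998 and 0.0464 under the block. With rRNA left out of the totals, the fall of cdc-48.1 was called without the block as well (adjusted p = 0.0464). With library quality weights, the rise of cdc-48.2 was called (adjusted p = 0.0177), as was its difference from the TIR1-only strain (0.0488). In every group at 24 h, replicate 1 had the lowest value of both genes.

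The share of cdc-48.2 in the pair varied less between replicates than either level at 24 h; this measure was chosen after the values were seen. At 24 h cdc-48.2 made up 47.1%, 46.6% and 45.8% of the pair's CPM in the HSF-1-AID auxin libraries, against 35.8%, 35.3% and 35.4% in the HSF-1-AID ethanol libraries. In TIR1-only libraries it made up 37.0%, 36.8% and 35.8% on auxin and 35.2%, 36.2% and 35.7% on ethanol. The 3 libraries of HSF-1-AID animals on auxin thus stood far above the other 9, whose shares lay close together. At 16 h the share was 39.5% ± 1.29 in HSF-1-AID animals on auxin and 36.5% ± 0.359 in those on ethanol, and at 8 h 34.8% ± 0.420 and 36.4% ± 0.920 (SD, n = 4 each). These pairs of groups did not overlap at 16 h or at 8 h either, although the difference at 8 h had the opposite direction.

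The log2 ratio of cdc-48.2 to cdc-48.1 changed by -0.10 at 8 h, 0.19 at 16 h and 0.66 at 24 h in HSF-1-AID animals. The exact two-sided permutation test gave p = 0.0286 at 8 h and at 16 h, the smallest that 4 against 4 libraries allow, and p = 0.10 at 24 h, the smallest that 3 against 3 allow, so the design could not reach p under 0.05 at 24 h. Adjusted over the 9 comparisons of this ratio, the values were 0.129, 0.129 and 0.30. In TIR1-only animals the changes were -0.064, 0.024 and 0.05, with overlapping groups each time. The sum of both genes at 24 h was 1859 ± 320.3 CPM in HSF-1-AID animals on auxin and 2007 ± 178 CPM in those on ethanol (SD, n = 3 each). How reads shared by the similar genes were assigned is not given in the sources used here, so the separate levels are uncertain to that extent. Exons of cdc-48.2 overlap ints-11, an Integrator subunit gene on the opposite strand, whose log2 fold change was 0.14 ± 0.041 (SE, adjusted p = 0.0125) at 16 h and 0.22 ± 0.077 (SE, adjusted p = 0.0398) at 24 h.

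**Figure D3:**
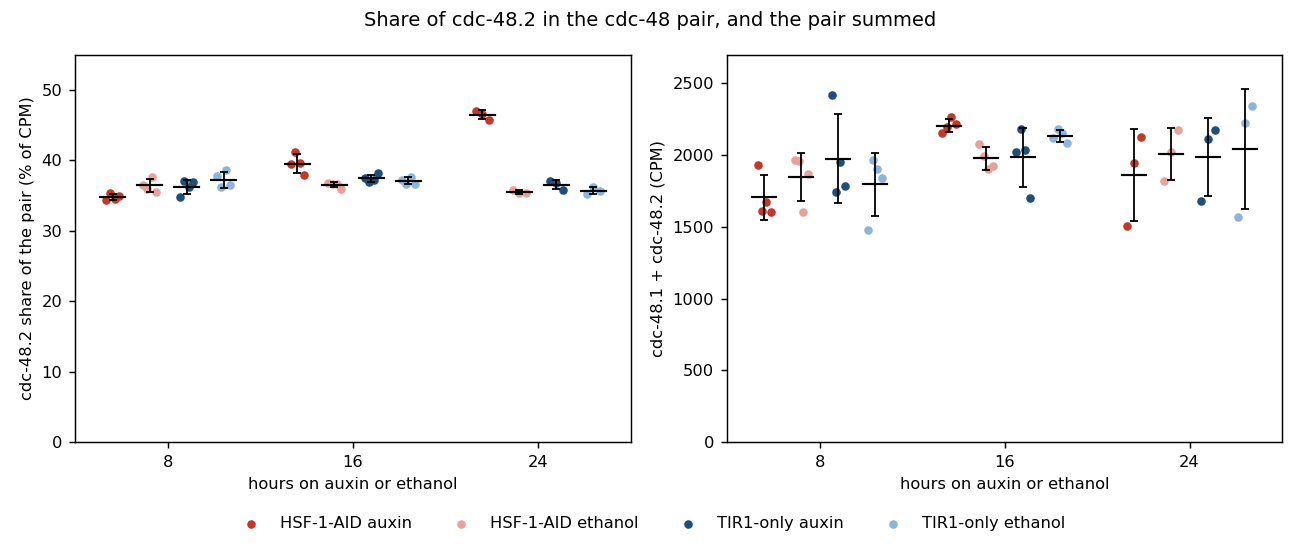
Left, the share of cdc-48.2 in the summed CPM of cdc-48.1 and cdc-48.2, in percent; right, the summed CPM; 1 point per library at 8, 16 and 24 h, with the group mean and SD in black. At 24 h the 3 HSF-1-AID auxin libraries hold 45.8% to 47.1%, above 35.3% to 35.8% in the HSF-1-AID ethanol libraries, while the sums overlap.

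Per kilobase of exon, the members span a wide range of levels. In all 12 groups the order of mean CPM per kilobase began with cdc-48.1 and cdc-48.2 and ended with skn-1, aip-1 and png-1, with ddi-1, sel-11 and sel-1 between. Group means ran from 363 to 489.5 CPM per kilobase for cdc-48.1, 234 to 345 for cdc-48.2, 79.8 to 148 for ddi-1, 64.7 to 103 for sel-11 and 62.2 to 99.5 for sel-1. They ran from 45.1 to 71.8 CPM per kilobase for skn-1, 30.8 to 43.3 for aip-1 and 8.06 to 18.7 for png-1, the least abundant member throughout. The order of the middle 3 varied with time, and sel-11 did not differ from at least 1 of ddi-1 and sel-1 beyond their SDs in any group but TIR1-only ethanol at 16 h. At 24 h in HSF-1-AID animals on auxin, cdc-48.1 and cdc-48.2 were not separated beyond their SDs, with 363 ± 66.4 and 341 ± 54.7 CPM per kilobase, whereas those on ethanol had 472 ± 43.4 and 282 ± 23.4 (SD, n = 3 each). Levels at different times come from tables that were normalized separately, so no test was made between times.

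How far the members moved together was described by Pearson's correlation of group means of log2 CPM, centred within each time, over 12 groups. These points share the normalization of their table, the control groups and the broad split between HSF-1-AID animals on auxin and the rest. The members png-1, ddi-1 and sel-1 had the most similar patterns, with r of 0.95 for png-1 and ddi-1, 0.96 for ddi-1 and sel-1 and 0.95 for png-1 and sel-1. The r of skn-1 was 0.91 with png-1 and 0.85 with ddi-1. The r of cdc-48.1 was negative with ddi-1, -0.70, and -0.25 with its paralog cdc-48.2. That of aip-1 was at most 0.50, with cdc-48.2.

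With the 33 proteasome subunits, the median r over subunits was 0.967 for png-1, 0.951 for ddi-1, 0.935 for sel-1, 0.858 for skn-1 and 0.858 for cdc-48.2. It was 0.569 for sel-11, 0.289 for aip-1 and -0.526 for cdc-48.1. The median r of a member with all genes lay between -0.141 and 0.03. Among the 9842 genes tested at all 3 times, proteasome subunits apart, the patterns most like that of png-1 were those of cogc-4 (r = 0.995) and mog-4 (0.995), and most like ddi-1 those of dnc-1 (r = 0.994) and eat-3 (0.994). For skn-1 they were ZC262.7 (r = 0.979) and smp-1 (0.973), for sel-1 hpo-9 (r = 0.988) and npl-4.1 (0.987) and for sel-11 T22F3.2 (r = 0.970) and lin-36 (0.964). For aip-1 they were rpl-29 (r = 0.930) and rpl-37 (0.885), for cdc-48.1 mex-1 (r = 0.985) and mtm-9 (0.984) and for cdc-48.2 rps-27 (r = 0.980) and mrpl-40 (0.967).

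The genes that SKN-1A is known to raise, those of the proteasome subunits, were higher in HSF-1-AID animals on auxin at the same times. Of 33 subunit genes, 33 rose at 16 h, with a median log2 fold change of 0.45, and 28 rose at 24 h, with a median of 0.54, or 33 with the replicate block. Over all genes 22.3% rose at 16 h and 18.2% at 24 h, or 25.9% with the block. The medians over all tested genes were -0.032 at 16 h and -0.011 at 24 h. At 8 h, 0 of 33 subunit genes were called by limma, 0 also at an unadjusted p under 0.05, and their median was -0.076. The lid subunit gene rpn-8, for example, averaged 362 ± 15.1 CPM on auxin and 234 ± 7.97 CPM on ethanol at 16 h (SD, n = 4 each), a log2 fold change of 0.63 ± 0.034 (SE, adjusted p = 5.10e-09), and rpn-5, also of the lid, changed by 0.56 ± 0.035 (SE, adjusted p = 1.52e-08). In TIR1-only animals 0 of 33 were called by limma at any time, 0 also at an unadjusted p under 0.05. The difference between strains was called for 32 of 33 at 16 h and 23 of 33 at 24 h, or 31 of 33 at 24 h with the replicate block, all higher in HSF-1-AID. Over all genes it was called higher for 17.2% at 16 h and 11.4% at 24 h, or 20.3% with the block. The subunits' log2 fold changes ran from 0.26 to 0.69 at 16 h and from 0.17 to 0.87 at 24 h. Among the pathway members, only png-1 lay above the subunits' median, at both times; this comparison between genes was not tested.

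Other partners of the extraction step rose with cdc-48.2 at 16 h. Of 12 genes for cofactors and relatives of CDC-48, 10 rose at 16 h and 0 fell, with a median log2 fold change of 0.32, and 7 rose and 0 fell at 24 h, with a median of 0.28. Over all genes 22.3% rose at 16 h and 18.2% at 24 h. The count of cofactor genes called at 24 h was 4 without HSF-1-AID ethanol replicate 2. The UBX-domain cofactor gene ubxn-6 averaged 174 ± 5.98 CPM on auxin and 132 ± 2.45 CPM on ethanol at 16 h (SD, n = 4 each), a log2 fold change of 0.39 ± 0.032 (SE, adjusted p = 1.72e-07). The gene ufd-1, whose product works with NPL-4 to bring ubiquitinated substrates to CDC-48, changed by 0.36 ± 0.033 (SE, adjusted p = 4.92e-07) at 16 h and 0.47 ± 0.072 (SE, adjusted p = 2.13e-04) at 24 h. In TIR1-only animals 0 of 12 were called by limma at each time, with 1 at an unadjusted p under 0.05 at 16 h and 0 at 8 h and 24 h. Between the strains the effects differed for 9 of 12 at 16 h and 2 of 12 at 24 h, or 8 of 12 at 24 h with the replicate block, all higher in HSF-1-AID. Over all genes they differed for 29.6% at 16 h and 24.1% at 24 h, or 41.6% at 24 h with the block. The shares with the higher effect in HSF-1-AID were 17.2%, 11.4% and 20.3%, in that order. The 2 of 12 at 24 h are thus a smaller share than the 24.1% in either direction, but not than the 11.4% higher.

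Further genes of degradation from the endoplasmic reticulum did not share one direction. Of 8 tested, 3 rose and 2 fell at 16 h, with a median log2 fold change of 0.03, and 1 rose and 2 fell at 24 h, with a median of -0.017, or 2 and 2 with the replicate block. The 3 of 8 called at 24 h are near the 38.4% called over all genes, and the 5 of 8 at 16 h stand beside 42.2%. Between strains the effects differed by the test of the difference for 3 genes higher and 1 lower at 16 h and for 1 higher and 1 lower at 24 h (1 and 2 with the block). Over all genes they differed for 29.6% at 16 h and 24.1% at 24 h, or 41.6% with the block. With rRNA left out of the totals 3 of the 8 were called at 16 h. The Derlin gene cup-2 rose at 16 h, 147 ± 8.20 CPM on auxin and 123 ± 3.43 CPM on ethanol (SD, n = 4 each), with a log2 fold change of 0.25 ± 0.043 (SE, adjusted p = 2.33e-04). The ubiquitin ligase gene marc-6 rose by 0.21 ± 0.036 (SE, adjusted p = 2.44e-04) at 16 h and 0.40 ± 0.075 (SE, adjusted p = 9.82e-04) at 24 h. Those that fell at both times were ubc-7, the ubiquitin-conjugating enzyme that serves the HRD1-type ligase in yeast and mammals, with -0.15 and -0.32 (adjusted p = 8.74e-04 and 0.0174), and uggt-1, a glycoprotein folding sensor, with -0.17 and -0.53 (0.0132 and 1.43e-04). These genes that fell were named after their values were seen.

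Among 12 genes that regulate or assist SKN-1, 6 rose and 0 fell at 16 h, with a median log2 fold change of 0.10. At that time 42.2% of all genes were called, 22.3% upward. At 24 h, 5 rose and 2 fell, with a median of 0.083, beside 38.4% of all genes, and with the replicate block 5 rose and 5 fell, beside 54%. The largest rise was that of wdr-23, which encodes the substrate receptor of a CUL-4 and DDB-1 ubiquitin ligase that represses nuclear SKN-1 and is itself a target of SKN-1. It averaged 82.6 ± 4.64 CPM on auxin and 51.2 ± 2.05 CPM on ethanol at 16 h (SD, n = 4 each), and 120.6 ± 3.77 and 58.3 ± 0.852 CPM at 24 h (SD, n = 3 each). The log2 fold changes were 0.69 ± 0.042 (SE, adjusted p = 1.45e-08) and 1.05 ± 0.064 (SE, adjusted p = 7.73e-08). Its partner ddb-1 changed by 0.35 ± 0.034 (SE, adjusted p = 8.27e-07) and 0.34 ± 0.092 (SE, adjusted p = 0.0103). In TIR1-only animals 0 of 12 were called by limma at each time, 0 also at an unadjusted p under 0.05. The difference between strains was called for 5 higher and 1 lower at 16 h and 4 higher and 1 lower at 24 h (5 and 3 with the block). Over all genes it was called for 29.6% at 16 h and 24.1% at 24 h, or 41.6% with the block. For wdr-23 the difference was called at 16 h (0.66 ± 0.06 (SE, adjusted p = 3.44e-06)) and 24 h (0.96 ± 0.091 (SE, adjusted p = 1.06e-05)).

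Most of the tested detoxification genes known to respond to SKN-1 were also higher in HSF-1-AID animals on auxin at 16 h and 24 h. Some of them rose on auxin in the strain without the degron too. In HSF-1-AID animals 7 of 12 tested rose and 1 fell at 16 h, with a median log2 fold change of 0.39. Of all genes 22.3% rose and 19.8% fell at that time. At 24 h 8 of 14 rose and 2 fell (9 and 2 with the block), with a median of 0.75. Among those that rose, gst-30, ugt-11 and sdz-8 averaged only 0.322, 0.5835 and 0.622 CPM in HSF-1-AID animals on ethanol. On auxin they averaged at most 2.418 CPM, and gst-30 and ugt-11 were not among the genes tested at 16 h. The count and median at 24 h thus include genes near the filter of 1 CPM. Of all genes 18.2% rose and 20.2% fell at 24 h, or 25.9% and 28.1% with the block. With a filter at 5 CPM the 16 h calls were 4 rises and 1 fall. In TIR1-only animals 2 of 12 rose at 16 h and 0 of 14 were called by limma at 24 h (4 at an unadjusted p under 0.05), with a median of 0.47. With the replicate block 1 of 14, gst-5, was called in TIR1-only animals at 24 h, beside 0.307% of all genes. The difference between strains was called for 2 of 12 at 16 h, both higher in HSF-1-AID, beside 29.6% of all genes, 17.2% higher. At 24 h it was called for 3 of 14, 2 higher and 1 lower, beside 24.1% of all genes, 11.4% higher. With the replicate block it was called for 5 higher and 3 lower, beside 41.6% of all genes. Without the block, the counts at 16 h and 24 h are thus smaller shares than those over all genes in either direction. The 2 of 14 higher at 24 h are not a smaller share than the 11.4% higher. The gene gcs-1, for the rate-limiting enzyme of glutathione synthesis, averaged 211 ± 6.003 CPM on auxin and 119.8 ± 5.42 CPM on ethanol at 24 h in HSF-1-AID animals, and 116 ± 5.68 and 118 ± 6.74 CPM in TIR1-only animals (SD, n = 3 each). Its log2 fold change in HSF-1-AID animals was 0.81 ± 0.073 (SE, adjusted p = 2.27e-06) and the difference between strains 0.83 ± 0.10 (SE, adjusted p = 9.73e-05). By contrast, gst-5, a glutathione S-transferase gene, rose in both strains. In HSF-1-AID animals it rose at 8 h (1.79 ± 0.23 (SE, adjusted p = 0.0019)), 16 h (0.99 ± 0.15 (SE, adjusted p = 6.05e-05)) and 24 h (1.38 ± 0.26 (SE, adjusted p = 9.28e-04)). In TIR1-only animals it rose at 8 h (1.36 ± 0.23 (SE, adjusted p = 0.014)) and 16 h (0.81 ± 0.15 (SE, adjusted p = 0.034)). Its difference between strains was 0.18 ± 0.21 (SE, adjusted p = 0.531) at 16 h.

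Of 8 genes for ubiquitin supply, shuttle factors and deubiquitinases of the proteasome, 6 rose and 0 fell at 16 h, with a median log2 fold change of 0.36, and 3 rose and 0 fell at 24 h, with a median of 0.16, or 4 and 0 with the replicate block. Of all genes 22.3% rose at 16 h and 18.2% at 24 h. The 3 of 8 called at 24 h are near the 38.4% called in either direction, but all rose, a larger share than the 18.2%. The effects of the strains differed by the test of the difference for 6 at 16 h and 3 at 24 h (4 with the block), all higher in HSF-1-AID. Over all genes that effect was higher for 17.2% at 16 h and 11.4% at 24 h, or 20.3% with the block. The deubiquitinase gene ubh-4 changed by 0.41 ± 0.041 (SE, adjusted p = 1.15e-06) at 16 h and 0.54 ± 0.11 (SE, adjusted p = 0.002) at 24 h. The ubiquilin gene ubql-1, for a shuttle factor, changed by 0.33 ± 0.034 (SE, adjusted p = 1.36e-06) and 0.40 ± 0.067 (SE, adjusted p = 4.70e-04). In TIR1-only animals 0 of 8 were called by limma at any time, 0 also at an unadjusted p under 0.05.

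**Figure D4:**
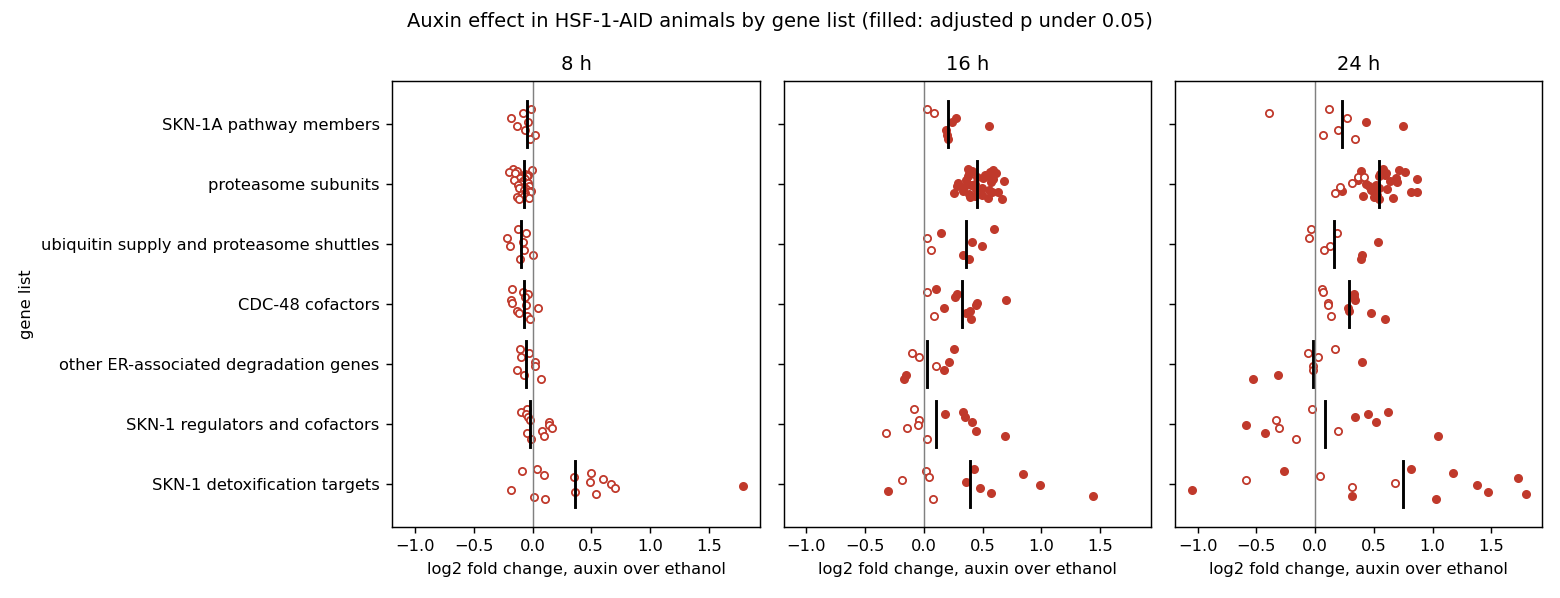
Log2 fold changes of auxin over ethanol in HSF-1-AID animals at 8, 16 and 24 h for the pathway members and related gene lists, 1 point per gene, filled where the adjusted p was under 0.05, with the median of each list as a black bar. All 33 proteasome subunit points are filled and above 0 at 16 h, and 6 of 8 pathway members are.

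**Figure D5:**
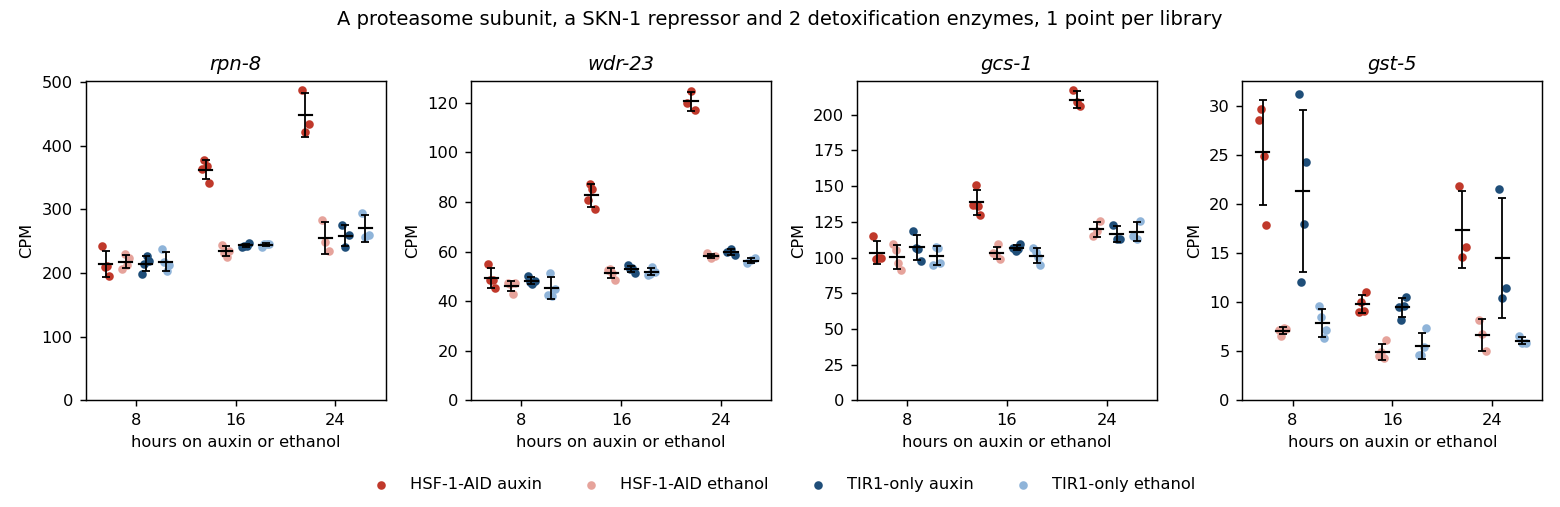
CPM per library of rpn-8, wdr-23, gcs-1 and gst-5 at 8, 16 and 24 h in the 4 groups (dark red and light red, HSF-1-AID on auxin and ethanol; dark blue and light blue, TIR1-only on auxin and ethanol), with the group mean and SD in black. The dark red points of rpn-8, wdr-23 and gcs-1 lie above every other group at 16 h and 24 h, while gst-5 is also high in TIR1-only animals on auxin at 8, 16 and 24 h.

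Some cell type markers moved at the same times. The summed CPM of 10 oocyte markers was 7446 to 8639 in HSF-1-AID animals on auxin and 9669 to 11150 in those on ethanol at 16 h, and 3126 to 4860 and 9264 to 11690 at 24 h, when TIR1-only animals had 8623 to 12300 on auxin and 8595 to 12960 on ethanol. Of these markers 7 of 10 fell at 16 h and 8 of 10 at 24 h (9 with the replicate block), and none was at 0 in any library. The summed CPM of 11 germline markers was 6907 to 7197 on auxin and 6446 to 6822 on ethanol in HSF-1-AID animals at 16 h, and 5599 to 6725 and 5985 to 6696 at 24 h; 3 rose and 1 fell at 16 h, and 1 rose and 2 fell at 24 h (2 and 4 with the block). Of 9 intestine markers, 4 were lower at 16 h, with a median log2 fold change of -0.24, and 4 at 24 h (6 with the block), with a median of -0.42. Of all genes, 42.2% were called at 16 h and 38.4% at 24 h, or 54% at 24 h with the block. Without the block, the intestine counts are near these shares in either direction and the germline counts are below them. The intestine calls were all downward, however. Of all genes 19.8% fell at 16 h and 20.2% at 24 h, or 28.1% with the block, which are smaller shares than those of the intestine markers. The intestine markers summed to 45520 to 51450 CPM on auxin and 43720 to 56770 CPM on ethanol at 16 h, and to 16200 to 35620 and 28310 to 38570 CPM at 24 h. Of 7 body muscle markers, 0 were called by limma at 16 h and at 24 h, 0 also at an unadjusted p under 0.05, while at 24 h all 7 had positive values, with a median of 0.53, and 4 were called higher with the block. They summed to 283.9 to 781 CPM on auxin and 317.8 to 443.9 CPM on ethanol at 24 h. Of 8 neuron markers, 2 were higher at 24 h and 0 were called at 16 h by limma (2 at an unadjusted p under 0.05), and the sum at 24 h was 194.3 to 212.2 CPM on auxin and 180.2 to 187.9 CPM on ethanol. The 2 sperm markers listed at 24 h summed to 12.24 to 19.93 CPM on auxin and 5.815 to 9.811 CPM on ethanol in HSF-1-AID animals. Of them 1 was called higher at 24 h, or 2 with the block, and 0 were called at 16 h. Of 3 hypodermis markers, 1 rose at 16 h and 0 were called at 24 h, or 1 higher with the block. The part that the change in oocyte, sperm, intestine, muscle or neuron transcripts has in the levels of the pathway genes, the fall of cdc-48.1 at 24 h included, was not tested.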

How the data were processed

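Poly(A)-enriched RNA of whole worms was sequenced from directional libraries, per the labels' protocols. The authors' reads went through STAR, featureCounts and edgeR, per the submitters' processing notes, which name the builds WBcel235 and ce11; versions, the counting strand and the handling of shared reads are not given in the sources used here. The deposited values are log2 CPM, in 1 table per time, with a prior count added by the authors, as read from the values. With the prior removed on the linear scale, 100% of values were whole reads within 0.05 of a read, which gave the CPM and the depth stated in the report. The deposited fold-change tables were not used. The fewest reads of a member in a library were 185, for png-1 at 8 h; counting error is part of the spread between libraries and for such low values can be as large.

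Genes with a deposited value of at least 1 CPM in as many libraries as the smallest group were tested, 10971 at 8 h, 10173 at 16 h and 10411 at 24 h. The log2 values were fitted as deposited with limma (version 3.58.1, under R 4.3.3), with a variance trend and the 4 groups of a time in 1 model, for 4 comparisons: auxin against ethanol in each strain, the difference between these effects, and the strains on ethanol. All p-values are two-sided; they were adjusted by Benjamini and Hochberg's method over every gene tested at that time, with a threshold of 0.05. Same-numbered libraries at 24 h deviated together in 18 of 18 pairs, with correlations of 0.182 to 0.535, so results of a fit with the replicate number as a block are given beside the members and lists whose calls they change. The pairing comes from the data; the labels do not say what a number shares.

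Positions, exon lengths and symbols are from Ensembl release 115 of WBcel235. The members, the gene lists and the comparisons were chosen with earlier results of these data known. Named besides the members are, for each list, the called genes with the 2 smallest adjusted p at 16 h, and for each member the 2 genes most like it. The alternatives were other filters, scalings, priors, weights, groups in the fit, the variance trend, the replicate block and leaving out each library.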

Additional observations from a re-analysis of the deposited data

Results flagged for a closer look

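In 3 of the 64 groups of 4 libraries checked, 1 library stood apart from the others of its group, and chance gives about 1 in 20 groups. These were sel-1 at 16 h in HSF-1-AID auxin replicate 2, with 193 CPM where the others had 179.8 to 181 CPM, sel-1 at 16 h in TIR1-only ethanol replicate 1, with 169 CPM where the others had 156 to 158 CPM, and cdc-48.2 at 8 h in HSF-1-AID auxin replicate 1, with 665 CPM where the others had 559 to 577 CPM.

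For 7 results the auxin effect differed between the strains by the test of the difference itself, all with the larger effect in HSF-1-AID animals. On the log2 scale the differences at 16 h were 0.72 for png-1, 0.37 for cdc-48.2, 0.28 for skn-1, 0.24 for sel-11 and 0.18 for ddi-1. At 24 h they were 0.74 for png-1 and 0.48 for ddi-1.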

How the results depend on the processing

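Of 2304 values of single members under the alternatives, 2250 kept their side of the threshold, 27 lost a call and 27 gained one. Of those called in the main fit or under the alternative, 0 changed direction. Values called in neither could change sign. Leaving out 1 library moved the log2 fold change of skn-1 at 8 h in HSF-1-AID animals between -0.10 and 0.055. In HSF-1-AID animals on auxin the number of members called at 16 h was 4 to 6 over all alternatives. At 24 h it was 2, and became 4 with median-centred libraries, 4 with rRNA left out of the totals, 5 with library quality weights and 6 with the replicate block. Leaving out 1 library gave 2 to 3. The difference between strains was called for 5 members at 16 h and 2 with rRNA left out, and leaving out 1 library gave 2 to 6. At 24 h it was called for 2, and for 1 with rRNA left out, 4 with quality weights, 1 with the trend off and 5 with the block, with 1 to 2 when 1 library was left out. Median centring moved the median of all genes by 0.11 at 24 h. Among all genes, the 31 calls at 8 h in HSF-1-AID animals became 20 with a filter at 5 CPM, 285 with quality weights and 3 without the libraries numbered 4, and 9 to 36 when 1 library was left out. The 27 calls at 8 h in TIR1-only animals became 0 in a fit of those groups alone and 0 without the libraries numbered 4. In TIR1-only animals at 24 h the 1 call became 0 with a filter at 5 CPM and 32 with the block. The difference between strains had 1 call at 8 h, which became 3 with quality weights and 0 without the libraries numbered 4, and 2508 calls at 24 h, which became 4332 with the block. On ethanol the strains differed in 1 gene at 8 h (0 in a fit of those groups alone, 0 with quality weights, 3 with the trend off), 3 genes at 16 h (0 in a fit of those groups alone, 13 with quality weights, 1 with the trend off) and 1 gene at 24 h (2 with quality weights, 7 with the block). At 8 h and 16 h the numbers as a whole do not pair the libraries (14 of 24 and 15 of 24 pairs over 0.1). The libraries numbered 4 did deviate together, with correlations of 0.455 to 0.729 at 8 h and 0.481 to 0.708 at 16 h. The replicate block called the same number of members there, 0 at 8 h and 6 at 16 h. The cause of these changes was not tested.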
